A study of Mus musculus with 10 samples.

Results

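The 10 genes described here encode transcription factors of the epidermis: the grainyhead factors Grhl1, Grhl2 and Grhl3, the p53 relative Trp63, the zinc finger factors Zfp750, Klf4, Klf5 and Ovol1, and the AP-2 factors Tfap2a and Tfap2c. They were taken by gene symbol from the array's annotation, with the brightest feature of a gene by its mean over all 10 arrays. Each of the 10 had 1 feature, a transcript cluster measured by many short probes, and all 10 passed the filter on level, among 17629 genes tested of 30698 with a feature of their own. Features were selected on their mean signal, and the genes were chosen by name with earlier results of the same contrast known, Grhl3 leading. The differences and p-values below therefore describe a chosen set and are no independent evidence.

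The arrays came from skin wounds of male diabetic db/db mice [BKS(D)-Leprdb/JOrlRj)] on a C57BL/6 background, 11 weeks old before a week of single housing. The db allele inactivates the leptin receptor, both groups carry it, and the mice are obese and diabetic. Each mouse received 2 full-thickness back wounds with a 4 mm punch, and 0.5 nmol of miR-132 mimic (5 mice) or control mimic (5 mice) in 100 µl was injected at 4 points of each wound's edge. Mimics are short synthetic double-stranded RNAs that stand in for a mature microRNA. They reached whatever cells took it up, and RNA came from whole wound-edge biopsies 6 days after injury. In such bulk tissue, fewer cells of a type and less RNA per cell cannot be told apart.

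Epidermis is a layered epithelium in which dividing basal keratinocytes stop dividing, move up, and build a cornified barrier. Trp63 keeps the basal state and opens the epidermal programme. Zfp750 acts downstream of it with Klf4 to switch on late differentiation, and Ovol1 restrains proliferation as cells leave the basal layer. The AP-2 factors support epidermal genes in basal and suprabasal cells, and Klf5 is found mainly in the basal compartment. Grainyhead factors bind DNA as dimers and control junction and barrier genes, and Grhl3 is known for its need in barrier formation and in epidermal wound closure.

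The supplied microRNA is shown first because it is what the treated wounds received. Capitals mark the seed, bases 2 to 8 from the 5′ end, which pairs with target messenger RNAs. The sequences are RefSeq's for the mouse (build GRCm38.p6), where both precursors lie on the plus strand of chromosome 11. The labels do not say which arm the mimic carried.
mmu-miR-132-3p: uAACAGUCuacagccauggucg
mmu-miR-132-5p: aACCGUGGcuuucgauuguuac
mmu-miR-212-3p: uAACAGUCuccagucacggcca
The 3p arms of miR-132 and of its neighbour miR-212 share 1 seed, and the 5p arm has another.

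All 10 factors averaged lower in wounds given miR-132, with Grhl3 furthest at 4.18-fold, and none passed the adjusted threshold over all 10 arrays. Of all genes tested, 53.6% averaged lower. The median difference (miR-132 minus control, log2) was -0.83 over the 10 factors and -0.02 over all genes tested. Of the 10, 3 averaged at least 2-fold lower (Grhl3, Ovol1 and Zfp750), against 0.692% of genes. By limma across all genes, 0 of the 10 passed an adjusted p of 0.05, as did 0.0% of genes, with adjusted p-values of 0.597 to 0.721. At an unadjusted p under 0.05, 6 of the 10 were lower (Grhl3, Klf4, Klf5, Ovol1, Trp63 and Tfap2c), against 5.61% of genes.

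One array stood apart. On miR-132 replicate 3, 7 of the 10 factors were higher than on any other array, against 10.9% of genes. On that array 9 of the 10 lay above their control mean, a count for which the share of all genes was not taken. The groups overlapped for every factor because of that array: 0 of the 10 had all miR-132 values below all control values, against 0.647% of genes. With that array left out, the other 4 miR-132 arrays lay below all 5 controls for 10 of 10 factors, against 5.01% of genes. Values are therefore given with and without it. The array was singled out after its values were seen. It was the highest miR-132 array for 10 of 10 factors, so leaving it out had to lower each miR-132 average. The SE of each difference was also smaller without it. The p-values without this array are therefore a description only.

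Among the grainyhead factors, Grhl3 (cluster TC0400003769.mm.1) measured 9.24, 8.98, 12.07, 9.52 and 7.84 log2 signal on miR-132 replicates 1 to 5. On control replicates 1 to 5 it measured 11.05, 11.39, 11.35, 11.85 and 12.32. Replicate 3 of the miR-132 group lay inside the control range, and the other 4 lay below every control. The difference was -2.06 ± 0.67 (SE, n = 5 per group, limma's adjusted p of 0.597), the 13th lowest of all genes tested. Without miR-132 replicate 3 it was -2.70 ± 0.38 (SE, n = 4 and 5), with limma's adjusted p of 0.0411. That value is under the threshold but describes arrays chosen after their values were seen.

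Grhl1 (TC1200000200.mm.1), which acts on desmosome genes, measured 8.73, 8.22, 9.80, 8.19 and 7.57 with miR-132. It measured 9.78, 9.05, 8.95, 9.57 and 9.27 in controls. The difference was -0.82 ± 0.37 (SE, adjusted p of 0.624), and -1.15 ± 0.26 without replicate 3. Grhl2 (TC1500000278.mm.1), which maintains epithelial junctions, had the smallest difference of the 10. Its values were 6.72, 6.96, 7.35, 6.80 and 6.66 with miR-132. Controls measured 7.23, 7.0, 7.01, 7.19 and 7.01. The difference was -0.19 ± 0.13 (SE, adjusted p of 0.721), and -0.30 ± 0.09 without replicate 3. For both genes replicate 3 was above every control.

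Trp63 (TC1600000368.mm.1) measured 7.63, 7.66, 8.31, 7.06 and 6.74 with miR-132. The 5 controls lay close together at 8.18, 8.23, 8.0, 8.08 and 8.30. The SD was 0.12 in controls and 0.61 with miR-132, the widest ratio of the 10 at 5.08. It averaged 1.60-fold lower (-0.68 ± 0.26, SE, adjusted p of 0.597), and -0.89 ± 0.20 without replicate 3. Zfp750 (TC1100004254.mm.1) measured 9.72, 9.10, 11.33, 9.43 and 8.63 with miR-132 and 11.10, 10.66, 10.14, 11.07 and 10.34 in controls. Its difference was -1.02 ± 0.46 (SE, adjusted p of 0.620), a 2.03-fold lower average, and -1.44 ± 0.28 without replicate 3. Outside replicate 3, every miR-132 value of both genes lay under the lowest control.

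**Figure D1:**
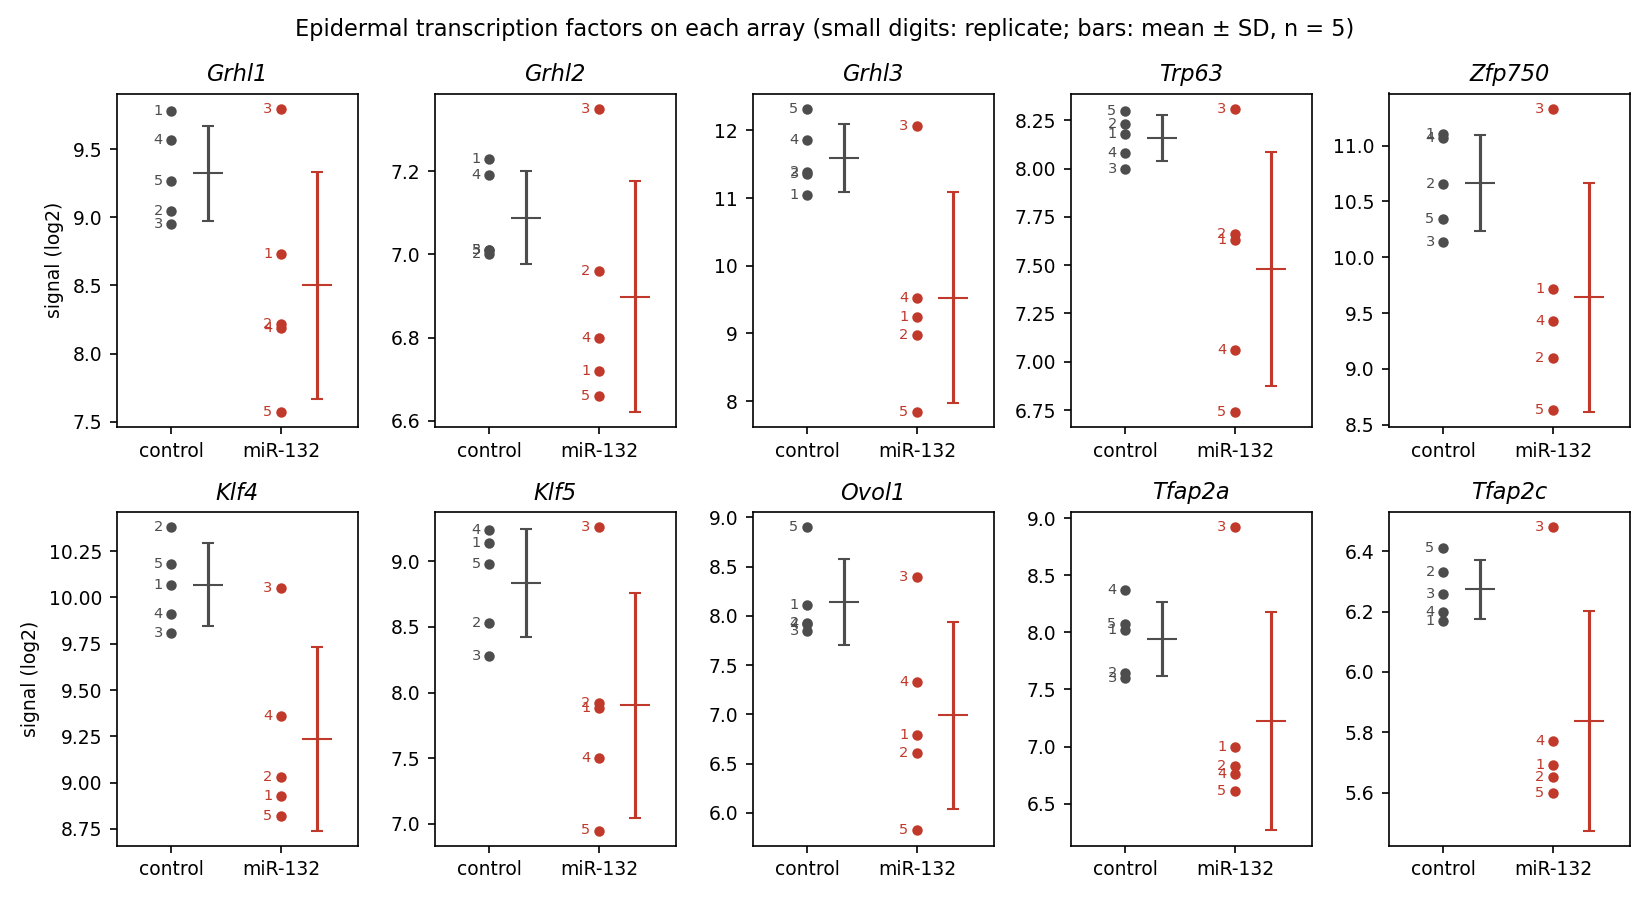
Signal (log2) of each of the 10 factors on every array, 1 panel per gene with its own axis, control wounds in grey and miR-132 wounds in red. Points are arrays with their replicate number and bars are the mean ± SD (n = 5). In every panel miR-132 replicate 3 is the highest miR-132 array and replicate 5 the lowest.

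Klf4 (TC0400002694.mm.1), a factor of barrier formation that also responds early to stimuli, was the 1 gene of the 10 with all 5 miR-132 arrays below the control mean. Replicate 3 was only just below, at 10.05 against a control mean of 10.07. The other 9 had 4 of 5, and the share of all genes with such counts was not taken. Klf4 measured 8.93, 9.03, 10.05, 9.36 and 8.82 with miR-132. Controls measured 10.07, 10.38, 9.81, 9.91 and 10.18. Replicate 3 was inside the control range here. The difference was -0.83 ± 0.24 (SE, adjusted p of 0.597), and -1.03 ± 0.17 without replicate 3 (adjusted p of 0.0532). Klf5 (TC1400001157.mm.1) measured 7.88, 7.92, 9.26, 7.50 and 6.95 with miR-132 and 9.14, 8.53, 8.28, 9.24 and 8.98 in controls. It averaged 1.91-fold lower (-0.93 ± 0.39, SE, adjusted p of 0.598), and -1.27 ± 0.27 without replicate 3.

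Ovol1 (TC1900000973.mm.1) measured 6.79, 6.61, 8.39, 7.33 and 5.82 with miR-132. Controls measured 8.11, 7.93, 7.85, 7.92 and 8.90, with replicate 5 above the rest. It averaged 2.22-fold lower (-1.15 ± 0.43, SE, adjusted p of 0.597), and -1.50 ± 0.32 without miR-132 replicate 3.

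Tfap2a (TC1300001851.mm.1) measured 7.0, 6.83, 8.92, 6.76 and 6.61 with miR-132 and 8.02, 7.64, 7.60, 8.37 and 8.07 in controls. Tfap2c (TC0200002672.mm.1) measured 5.69, 5.65, 6.48, 5.77 and 5.60 with miR-132 and 6.17, 6.33, 6.26, 6.20 and 6.41 in controls. On both, 4 miR-132 arrays clustered well under the controls and replicate 3 exceeded them all. Tfap2a differed by -0.72 ± 0.41 (SE, adjusted p of 0.678) and Tfap2c by -0.44 ± 0.16 (SE, adjusted p of 0.597). Without replicate 3 these became -1.14 ± 0.17 (limma's adjusted p of 0.0459) and -0.60 ± 0.07 (adjusted p of 0.0293). Both lay under the threshold, as a description only, since that array was left out after its values were seen.

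Without miR-132 replicate 3, 52 genes passed limma's adjusted threshold, 0.295% of those tested, and Grhl3, Tfap2a and Tfap2c were 3 of them. All 10 factors then had an unadjusted p under 0.05 and were lower, against 10.4% of genes. With a further quantile normalization of the remaining arrays 0 genes passed, and Grhl3, Tfap2a and Tfap2c stood at an adjusted p of 0.0616. With control replicate 5 left out as well, without that normalization, 0 genes passed too, and the 3 stood at 0.124, 0.132 and 0.0765. Leaving out any other single array gave 0 called genes. Without both miR-132 replicates 2 and 5, whose signal ranges were the narrowest, Grhl3 differed by -1.31 and the median of the 10 was -0.50.

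The 10 factors varied together among the miR-132 wounds. Replicate 3 was the highest and replicate 5 the lowest miR-132 array for 10 of 10, which held for 8.54% of all genes tested. Both replicates were named after the values of the 10 factors were seen, so this count is a description only. The spread was wider with miR-132 than in controls for 10 of 10, by 2.07 to 5.08 times in SD, against 68.1% of genes. Control SDs of the 10 ran from 0.10 to 0.50, and miR-132 SDs from 0.28 to 1.56. The medians over all genes were 0.17 and 0.23.

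Epidermal keratinocyte markers moved on the same arrays. Krt5 and Krt14, the keratin pair of basal keratinocytes, stood at the scale's upper limit of 19.93 on every control array. They averaged 19.73 and 19.91 with miR-132, so keratinocyte RNA was present in both groups. Values at that limit cannot show how far its amount differed. All 12 markers averaged lower with miR-132, against 53.6% of genes, with a median difference of -0.67. Krt15 was lower by only -0.02 ± 1.055 (SE). At an unadjusted p under 0.05, 6 of 12 were lower, against 5.61% of genes. Cdh1 (E-cadherin) differed by -1.45 ± 0.41 (SE), the desmosomal cadherin gene Dsg3 by -1.10 ± 0.32 and the plakophilin gene Pkp3 by -0.82 ± 0.28. Desmoplakin (Dsp) differed by -0.53 ± 0.17. None passed adjustment over all 10 arrays (adjusted p of 0.597 for each). Without miR-132 replicate 3, 6 of the 12 did (Cdh1, Dsp, Jup, Pkp1, Pkp3 and Dsg3), against 0.295% of genes. This count too is a description only, since that array was left out after its values were seen.

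Over the 10 markers below the signal limit, the mean per array was 11.34, 10.73, 11.78, 10.58 and 10.48 with miR-132. In controls it was 11.86, 12.17, 11.32, 11.60 and 11.84. The groups averaged 10.98 ± 0.56 and 11.76 ± 0.32 (SD, n = 5 each). As for the factors, miR-132 replicate 3 was the highest miR-132 array and replicate 5 the lowest. A fit with this mean as a covariate bears on how far the factors moved with it.

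**Figure D2:**
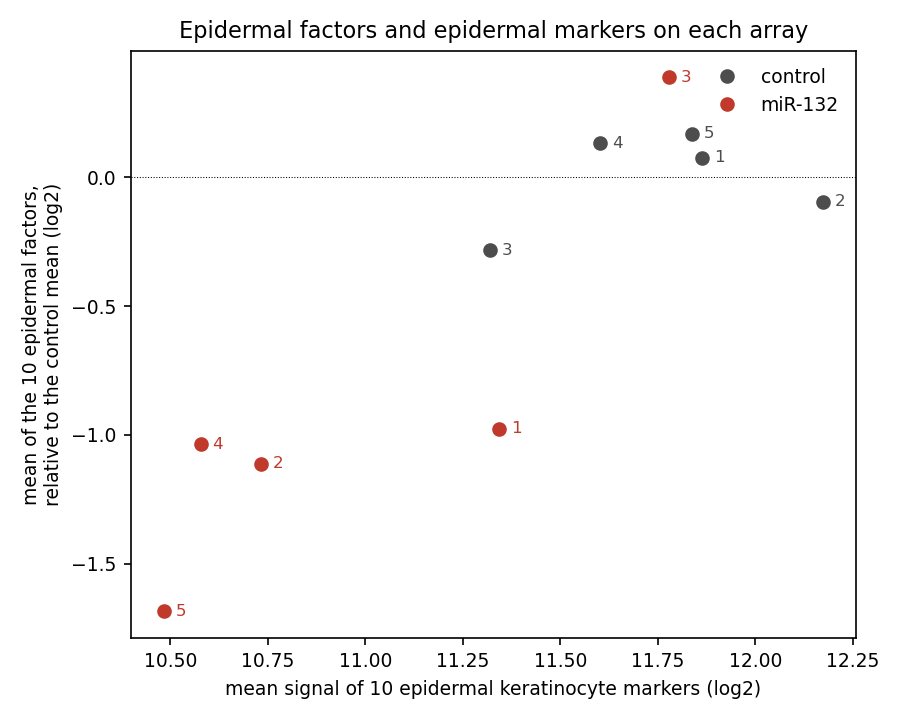
Mean of the 10 factors on each array relative to the control mean (log2, vertical) against the mean signal of 10 epidermal keratinocyte markers (log2, horizontal), control arrays in grey and miR-132 arrays in red with replicate numbers. On miR-132 replicate 5 both are lowest (-1.68 and 10.48), and on replicate 3 the factors are highest (0.39).

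With that marker mean as a covariate the median difference of the 10 factors was -0.06, and the sign turned for 4 of them, Grhl1 (0.04), Grhl2 (0.01), Zfp750 (0.06) and Tfap2a (0.15). Grhl3 kept the lowest value of the 10 at -0.70 ± 0.71 (SE), followed by Klf4 at -0.35 ± 0.26 and Ovol1 at -0.34 ± 0.48, each with an adjusted p of 1.0. The markers themselves differed between the groups, so this covariate is partly confounded with treatment. Set against the marker mean of the same array, Grhl3 averaged -0.17 in controls (-0.81 to 0.48) and -1.45 with miR-132 (-2.64 to 0.29). The relative difference was thus -1.28 for Grhl3, -0.38 for Ovol1, -0.24 for Zfp750 and -0.155 for Klf5. It was -0.055 for Klf4, -0.045 for Grhl1, 0.06 for Tfap2a, 0.10 for Trp63, 0.34 for Tfap2c and 0.59 for Grhl2. For the genes from Klf4 to Grhl2 the difference was about that of the markers or smaller.

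**Figure D3:**
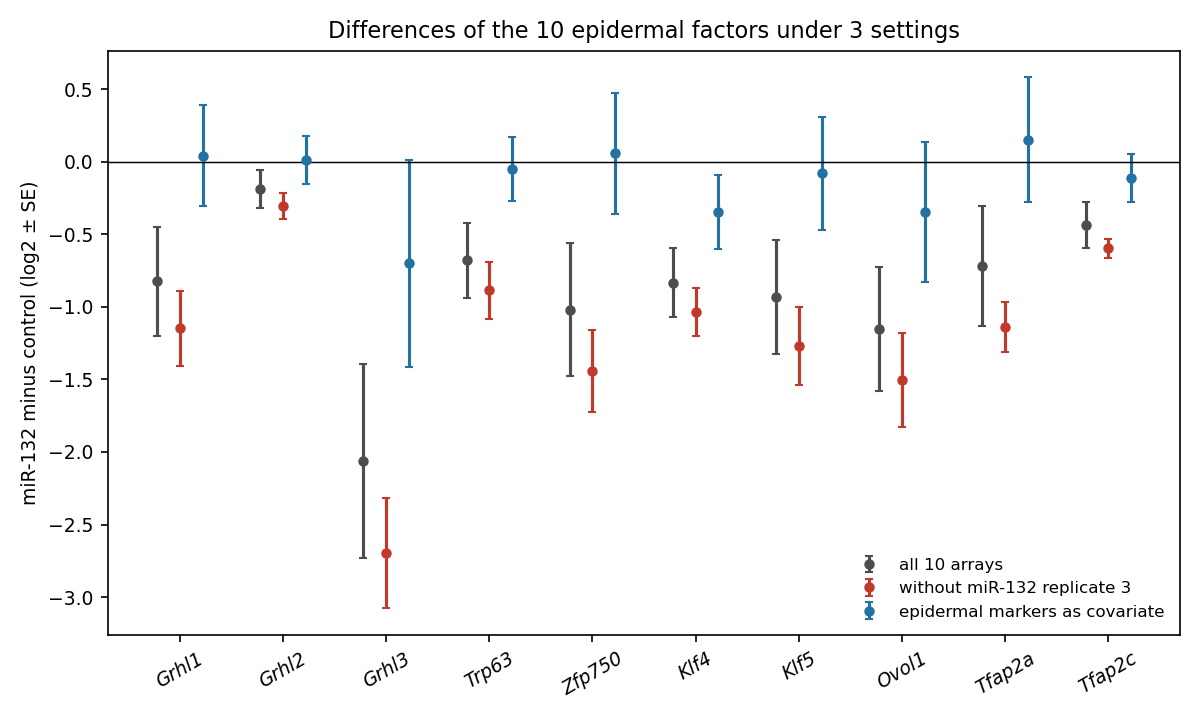
Difference of each of the 10 factors, miR-132 minus control (log2, vertical), with its SE: grey for all 10 arrays, red without miR-132 replicate 3, blue with the epidermal marker mean as a covariate. Grhl3 is lowest under all 3 settings (-2.06, -2.70 and -0.70), and with the covariate Klf4 and Ovol1 follow at -0.35 and -0.34.

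Markers of other cell types were given by the same arrays. Adipocyte markers averaged higher for 6 of 6 (median 0.36), neutrophil markers lower for 6 of 6 (-0.44) and skeletal muscle markers lower for 5 of 6 (-0.49). Of all genes tested, 53.6% averaged lower. Each list's arrays overlapped widely between groups: adipocyte means ran from 9.09 to 12.05 in controls and 9.47 to 12.68 with miR-132, neutrophil means from 6.98 to 10.05 and 7.34 to 8.29, and muscle means from 10.15 to 12.72 and 9.88 to 12.87. The members with the smallest p were Adipoq (0.84), Csf3r (-0.92) and Myh4 (-0.86). These medians shifted with single arrays. The adipocyte median was 0.07 when control replicate 4 was dropped and 0.80 when control replicate 5 was. The neutrophil median was -0.85 when control replicate 1 was dropped and -0.21 when control replicate 4 was. The muscle median was -0.90 when control replicate 4 was dropped and -0.17 when miR-132 replicate 4 was. Adjusting for the spiked hybridisation controls gave a muscle median of 0.04 and an adipocyte median of 1.42. With it Grhl3 differed by -2.58 and the median of the 10 factors was -0.95. The mean of these spikes ran from 10.57 to 10.98 on miR-132 arrays and from 10.43 to 10.61 on arrays of control wounds. This covariate is therefore also partly confounded with treatment. Fibroblast (median -0.10), endothelial (-0.10) and macrophage markers (0.03) lay near the controls. Hair follicle markers had a median of -0.03 and included genes near the lowest signal. With a stricter filter on level the median was -0.48, but only Krt79 (-0.89 ± 0.54, SE) and Sox9 (-0.07 ± 0.15) remained. The 3 sebaceous gland markers had a median of -0.19, or 0.52 after adjusting for the hybridisation controls. Apart from S100a8 and S100a9, tied at the signal limit on 9 arrays each, replicates 3 and 5 were the highest and lowest miR-132 arrays for 0 genes of these lists. Of all genes tested, 8.54% had that order. The part of these cell types in the results was not tested.

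Among 18 measured relatives of the same families, 11 averaged lower and 7 higher, with a median of -0.04. Of all genes tested, 53.6% averaged lower. At an unadjusted p under 0.05, 1 relative was lower, near the share of 5.61% over all genes. With a stricter filter on level the median was -0.21. The gene at an unadjusted p under 0.05 was Klf10 (-0.50 ± 0.21, SE), a factor induced by TGF-beta. Klf7 differed by -0.66 ± 0.31, Ubp1, a distant grainyhead relative, by -0.20 ± 0.09, and Klf15 by 0.19 ± 0.09. Other transcription factors of the epidermis averaged lower for 19 of 22, with a median of -0.28 (0.01 with the epidermal marker mean as a covariate). At an unadjusted p under 0.05 there were 3 lower ones, against 5.61% of genes, and 0 higher. These were Cebpb (-0.36 ± 0.14), which takes part in the exit from the basal state, Bnc1, a basal keratinocyte zinc finger factor (-0.57 ± 0.22), and Hopx (-0.36 ± 0.15). Rxra, a nuclear receptor partner, differed by -0.23 ± 0.11.

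Genes reported elsewhere as grainyhead targets averaged lower for 14 of 16, against 53.6% of genes, with a median of -0.55. At an unadjusted p under 0.05, 4 were lower, against 5.61% of genes. With the epidermal marker mean as a covariate the median was 0.11. Tgm1, which crosslinks the cornified envelope, averaged 13.66 in controls (SD 0.44) and 11.79 in miR-132 wounds (SD 1.4), a difference of -1.87 ± 0.60 (SE). Rab25, a small GTPase of epithelial traffic, differed by -1.10 ± 0.35 and passed adjustment without miR-132 replicate 3. Ppl, which encodes periplakin, differed by -1.18 ± 0.48, and the membrane protease gene St14 by -0.48 ± 0.21. Replicates 3 and 5 bounded the miR-132 arrays for 10 of the 16, against 8.54% of all genes tested. The 2 that averaged higher, named after their values were seen, were the actin bundler gene Fscn1 (0.16 ± 0.22) and Pkp2 (0.24 ± 0.25).

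Reported p63 targets averaged lower for 15 of 16, against 53.6% of genes, with a median of -0.37 (-0.06 with the marker covariate). At an unadjusted p under 0.05, 3 were lower, against 5.61% of genes. The cell adhesion gene Nectin1 differed by -1.04 ± 0.42 (SE). It was the 1 member of its list that passed adjustment without miR-132 replicate 3, against 0.295% of genes. The integrin gene Itga3 differed by -0.42 ± 0.17 and Smarca4, a chromatin remodelling ATPase, by -0.32 ± 0.12. Ripk4, a kinase of epidermal differentiation, stood at -0.59 ± 0.30.

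Genes of late differentiation divided. Of 27 measured, 18 averaged lower and 8 higher, Krt1 standing at the signal limit throughout. Krt10, counted among the higher, stood at that limit on 8 arrays, so its difference is not resolved. The median of the 27 was -0.61 (0.23 with the marker covariate). Of all genes tested, 53.6% averaged lower, and 5.61% were lower at an unadjusted p under 0.05. The 7 late genes at such a p were all lower. Among them were Cnfn, which encodes cornifelin (-2.34 ± 0.97, SE), and Tgm3 (-1.90 ± 0.66), a second envelope crosslinker. Lce3c (-1.82 ± 0.72) and Sprr1b (-1.41 ± 0.58) encode envelope precursors and belong to families of similar genes, so probes may be shared. Chosen after their values were seen, the filaggrin family genes Flg (0.28 ± 1.43), Flg2 (1.38 ± 2.45) and Hrnr (0.96 ± 0.58) and the involucrin gene Ivl (0.16 ± 0.58) averaged higher, with SEs mostly larger than the difference.

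**Figure D4:**
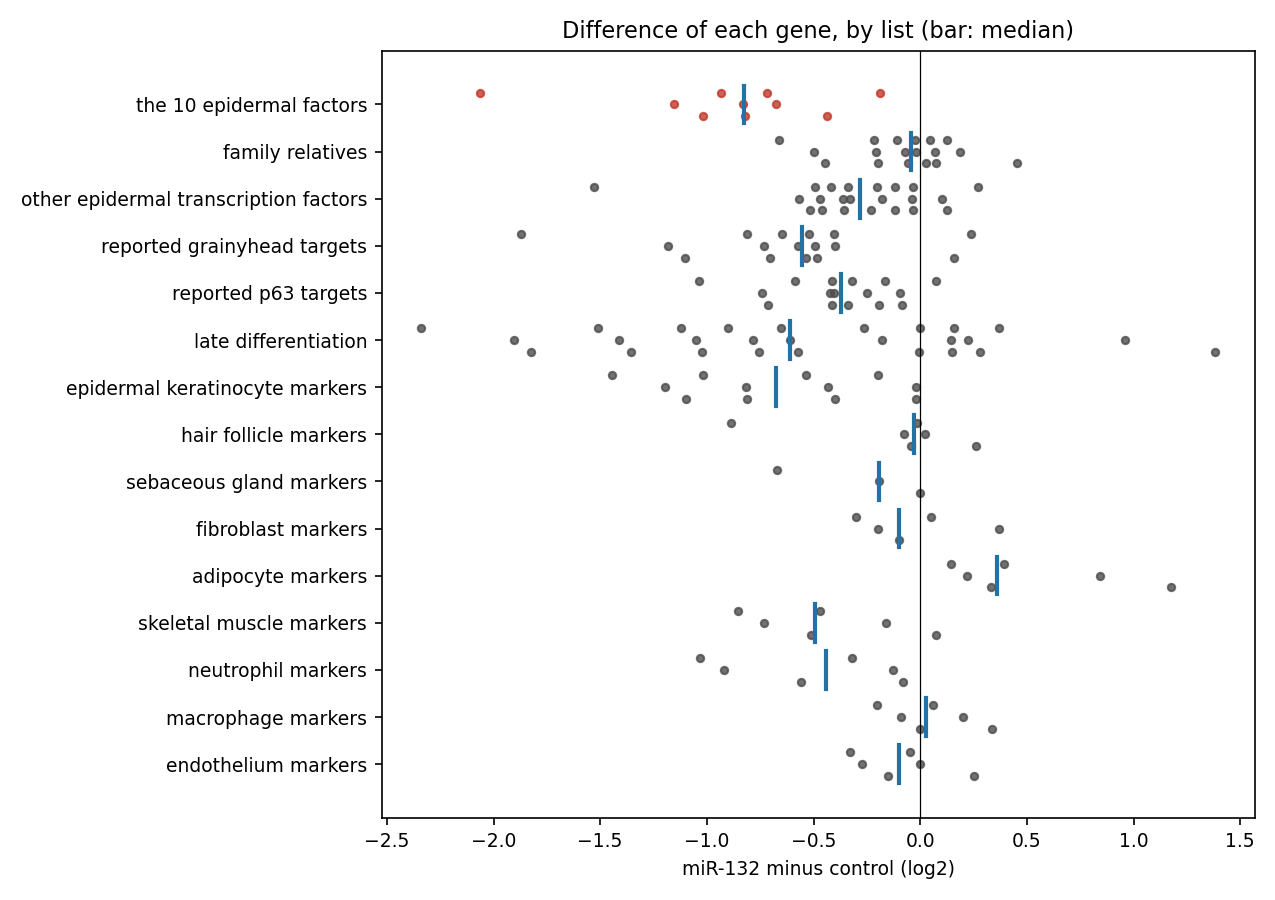
Difference of each measured gene, miR-132 minus control (log2, horizontal), for the 10 factors (red) and for each list of other genes (grey); blue bars are medians. The medians are -0.83 for the 10 factors, -0.55 for grainyhead targets, -0.67 for epidermal keratinocyte markers and -0.04 for relatives of the same families (-0.21 with a stricter filter on level).

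The genes whose signal followed Grhl3 most closely over the 10 arrays were, by Pearson's r as a description over arrays that share the 2 groups, Ptges (0.990), Plekhg1 (0.987), Endou (0.986), Trpv3 (0.985), Sprr2j-ps (0.985) and Tgm1 (0.984). Ptges encodes a prostaglandin E synthase and Trpv3 a heat-gated channel of keratinocytes. With each group centred on its own mean, these r were 0.967 to 0.980. For Grhl3 (12.07 and 7.84) and each of these genes, miR-132 replicates 3 and 5 were the highest and lowest miR-132 arrays. The r within groups rest largely on those arrays. Sprr2j-ps is a pseudogene of a family of near-identical genes, and its value is uncertain. Of the other 9 factors, Tfap2c (0.966) and Ovol1 (0.965) followed Grhl3 most closely and Grhl2 least (0.803).

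Promoters are shown for Grhl3, which had the lowest difference, and Klf4, since the factors varied together over the arrays. Klf4 was the 1 gene with all 5 miR-132 arrays below the control mean, though only narrowly for replicate 3. RefSeq's table (GRCm38.p6) held promoters for 4 of the 10 genes. The 250 bases before the start site were searched on both strands for AACCGGTT (grainyhead), GCCNNNGGC (AP-2) and CCNCACCC (the CACC box of KLF factors). Capitals mark matches. The Grhl3 window is chr4:135573633-135573882 and the Klf4 window chr4:55532476-55532725, both on the minus strand.
Grhl3: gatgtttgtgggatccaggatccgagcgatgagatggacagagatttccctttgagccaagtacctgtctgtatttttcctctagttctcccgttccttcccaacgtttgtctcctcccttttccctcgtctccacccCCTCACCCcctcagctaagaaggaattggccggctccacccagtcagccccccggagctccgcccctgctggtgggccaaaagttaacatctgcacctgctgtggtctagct
Klf4: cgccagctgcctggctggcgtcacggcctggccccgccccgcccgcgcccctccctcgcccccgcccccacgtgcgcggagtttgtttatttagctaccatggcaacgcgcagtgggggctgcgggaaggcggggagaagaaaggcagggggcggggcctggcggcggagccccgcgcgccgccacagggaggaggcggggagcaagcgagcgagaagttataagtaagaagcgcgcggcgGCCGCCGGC
The Grhl3 window held 1 CACC box, 112 to 105 bases before the start, a motif found in 14.9% of 32851 such windows. The Klf4 window held 1 AP-2 match in the last 9 bases before the start, a motif found in 13.7%. AACCGGTT was in neither and in 0.116% of all windows, and the matches did not overlap. Over the 6 promoter windows of the 4 genes, 2 held the AP-2 motif, 1 the CACC box and 0 AACCGGTT. The other AP-2 match lay in Grhl1, 82 to 74 bases before the start. GC content was 56.0% in the Grhl3 window and 74.0% in the Klf4 window.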

How the data were processed

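RNA of 10 wound-edge samples was measured on Affymetrix mouse Clariom D arrays. Per the submitters' processing notes, Expression Console 1.4 and RMA made the values that the authors deposited. The deposited values are taken as log2 signal from their range and their upper limit of 19.93, the log2 of 1000000, since the labels state no scale. No source used here gives the genome build behind the features.

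Of 72688 features, 31256 were named with 1 gene after symbols were updated through GRCm38.p6 gene identifiers and synonyms, 1494 held several genes and 39938 are unnamed here. The brightest feature stood for a gene. Genes with a mean above 4.17, the median over all features, were tested with limma 3.58.1 in R 4.3.3 (lmFit, eBayes with an intensity trend), two-sided, Benjamini-Hochberg over 17629 genes, threshold 0.05. The procedure was tested on simulated data with independent normal noise and the same spread of a gene in both groups. On the real arrays the factors varied together and spread more widely with miR-132, which that test does not cover.

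The genes, lists and tests were chosen with earlier results of these data known. Named genes are the 10 factors, the 4 genes per list with the lowest unadjusted p, and the 6 genes most correlated with Grhl3 (predicted genes left out); in the text not every such gene of the cell type lists is printed. Alternatives covered level filter, normalization, variance model, array weights, covariates, replicate block and left-out arrays. The number of arrays limits the precision.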

Additional observations from a re-analysis of the deposited data

Results flagged for a closer look

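Of 22 checks, each on a single measure within a group of 5 arrays, 3 found an array that stood apart by Dixon's criterion. Chance alone gives about 1 in 20 for a single check. The checks reused the same arrays and the factors varied together, so the checks are not independent. The count of 3 therefore cannot be set against that rate. Tfap2a measured 8.92 and Tfap2c 6.48 on miR-132 replicate 3, each far above the other 4 miR-132 arrays. Ovol1 measured 8.90 on control replicate 5, above the other 4 control arrays. Without that control array Ovol1 differed by -0.96.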

How the results depend on the processing

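Of 230 recomputed differences of the 10 factors, 223 kept their sign and stayed short of limma's adjusted threshold. The 3 that passed came without miR-132 replicate 3. The 4 that turned sign came with the epidermal markers as a covariate, where Grhl1 stood at 0.043, Grhl2 at 0.013, Tfap2a at 0.152 and Zfp750 at 0.058, and the median of the 10 was -0.064. The cause was not tested. When single arrays were left out, that median ranged from -1.14 to -0.64, genes past the threshold from 0 to 52 and factors past it from 0 to 3, the upper counts without miR-132 replicate 3. Replicate numbers are shared by the groups, but same-numbered arrays deviated together only in part (r of -0.03 to 0.16). With the replicate block 0 genes and 0 factors passed, and the median stayed at -0.83. Of 322 list medians, 317 moved by less than the spread between arrays, a criterion that ignores sign. Some of the 317 turned sign, for example late differentiation (0.232) and skeletal muscle markers (0.226) with the epidermal markers as a covariate. The other 5 were relatives (-0.213) and hair follicle markers (-0.481) with the stricter filter, sebaceous markers (0.522) with the hybridisation controls, and other epidermal factors (0.007) and grainyhead targets (0.106) with the epidermal markers as a covariate. Over all 10 arrays 1422 genes had an unadjusted p under 0.05.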
